A study of Homo sapiens with 6 samples.

Results

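The zinc finger gene clusters of human chromosome 19 were examined in ATAC-seq peak lists, in which accessible chromatin is marked by the cuts of a transposase. Peaks of 6 lists that overlapped by at least 1 bp were merged into 32037 union regions on chromosomes 1 to 22 and X. The members are the 281 union regions that lie in 4 fixed windows of chromosome 19 (hg19), chosen by position alone and not by any measured value. They make up 18.6% of the regions of that chromosome, and the other 1233 regions of chromosome 19 serve as the comparison. Window A is the 4.5 Mb from position 20.0 Mb on, window B runs from 36.9 to 38.4 Mb, window C from 44.3 to 45.0 Mb, and window D is the last 6.83 Mb of the chromosome. No region crossed a window border.

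The cells were CCRF-CEM, an established human T lymphoblast leukaemia line. SLFN11-knockout cells, with 1 knockout line in the labels, were compared with their SLFN11-positive parent. SLFN11 acts at replication forks that have stalled, and cells that make it respond more strongly to DNA-damaging drugs. Both genotypes were given the solvent DMSO, or camptothecin at 100 nM over 2 h, or the same dose over 4 h. Camptothecin holds topoisomerase I in its DNA-bound form. The 6 groups had 1 library apiece, so treatments were compared without a test, and clone and genotype cannot be told apart. Expression was not analysed here, so the loss of SLFN11 was not checked. Intervals of shares are 95% Wilson intervals, and those of log2 ratios are the same intervals for the split of peaks between both lists, turned into ratios. Intervals of shares cover counting error only, since neighbouring regions and amplified reads are not independent. Those of log2 ratios also treat the peaks of both lists as independent draws, although many peaks are shared. They are thus not the counting error of the ratio. Whether such an interval includes no difference does not decide whether peak numbers differed.

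Zinc finger genes of the KRAB type arose by repeated tandem duplication, and chromosome 19 holds most of the large clusters. Their proteins bind DNA through arrays of zinc fingers, many of them at transposable elements, and recruit the corepressor TRIM28, which brings in the enzymes of H3K9me3 heterochromatin. The clusters are known for an unusual chromatin state, with H3K9me3 over the gene bodies and open promoters between them. In the RefSeq gene table (GRCh38.p14, used for names only), 255 of the 1451 protein-coding genes of chromosome 19 (17.6%) carry a numbered ZNF or ZFP symbol, against 1.52% elsewhere. Runs of neighbours in that table include 27 genes in a row from ZNF737 to ZNF681, 24 from ZNF565 to ZNF793 and 20 from ZNF283 to ZNF180. These belong to the clusters for which windows A, B and C are known. Window D is known for several further clusters, for the LILR and KIR immune receptor genes, and for TRIM28 itself. The gene table and the peaks are of different builds, so no region was assigned to a gene and no sequence is shown.

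The treatment of each list was taken from the code in its name and peak identifiers, which equals the code in a sample title. The sample under which a list is recorded carries another code in 6 of 6 cases. By the recorded sample, the list coded as DMSO would be that of 4 h, the list coded as 2 h that of DMSO and the list coded as 4 h that of 2 h, in both genotypes. Values under this other placement are given, where they turned or moved, for ratios and shares over all members and for ranks of window A. Ratios by window, lists of equal length and named regions are given by the code only, and their direction can turn too. The list coded as parent DMSO was the shortest, with 14205 merged peaks, and the other 5 held between 19167 and 23665. It is the list that stands apart. Ratios and shares over all members that rest on it are mostly also given without it or with lists cut to equal length. Ratios and rank shifts by window, list patterns and named regions that rest on it are given for the full lists only.

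Accessible regions were sparse in the window next to the centromere and denser in the other 3 windows. Window A held 43 regions in 4.5 Mb, or 9.56 per Mb, with a median spacing of 67.7 kb between neighbours. Window B held 34 regions (22.7 per Mb, spacing 37.9 kb), window C 21 (30.0 per Mb, 22.9 kb) and window D 183 (26.8 per Mb, 21.9 kb). Over all windows the median spacing was 27.8 kb, against 17.6 kb among the other regions of chromosome 19. The longest stretches with no region in any list ran over 526 kb in window A (22290305 to 22816774) and over 596 kb in window D (57107073 to 57702745). Along window A the number of regions in bins of 0.5 Mb ran from 1 to 9, and along window D from 3 to 23.

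**Figure D1:**
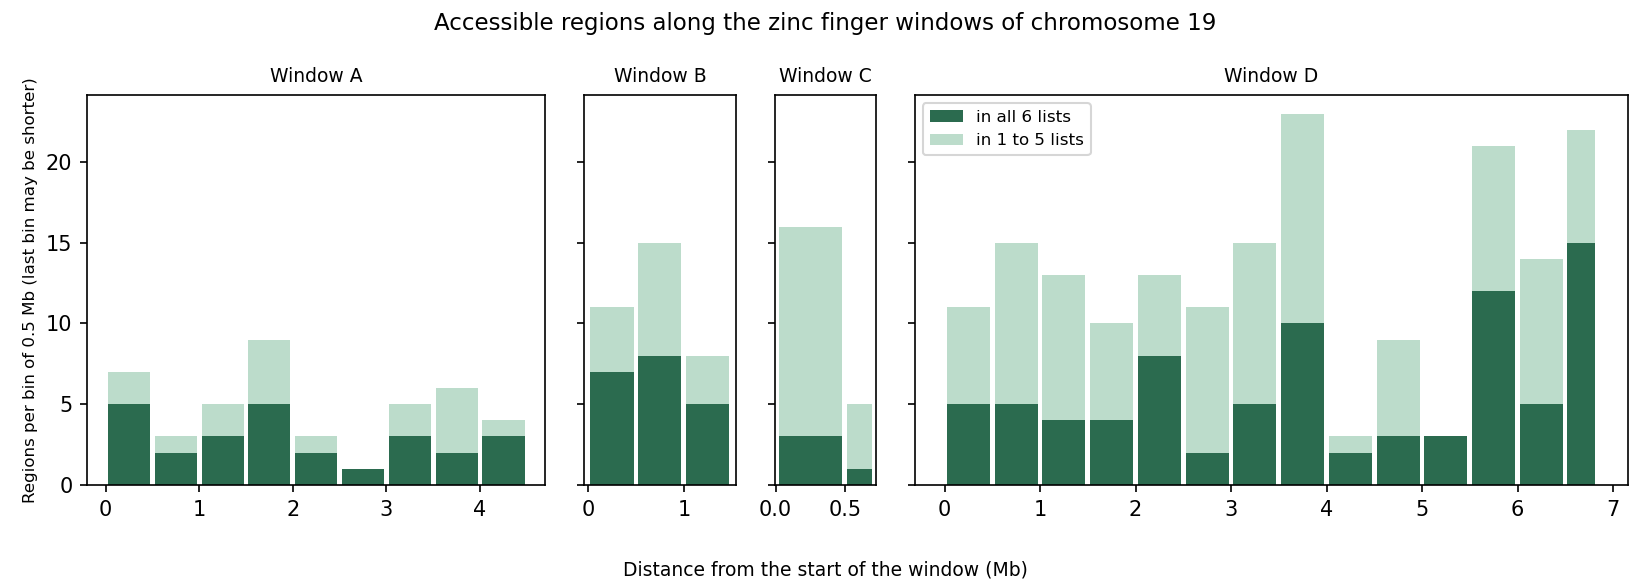
Number of accessible regions (y axis) in bins of 0.5 Mb by distance from the start of each window in Mb (x axis), split into regions called in all 6 lists (dark) and in 1 to 5 lists (light). Window A never exceeds 9 regions in a bin, whereas a bin of window D reaches 23; the last bins of windows C and D are shorter than 0.5 Mb.

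Members were more often called in every list than other regions. All 6 lists held 133 of the 281 members (47.3%, 41.6 to 53.2%), against 474 of the 1233 other regions of chromosome 19 (38.4%, 35.8 to 41.2%). The share over all regions of the series was 34.6%. A single list held 31 members (11.03%, 7.88 to 15.2%), against 271 other regions of chromosome 19 (21.98%, 19.8 to 24.4%). The windows differed among themselves. In windows A and B, 26 of 43 (60.5%) and 20 of 34 (58.8%) regions were in all 6 lists, in window D 83 of 183 (45.4%) and in window C 4 of 21 (19.05%). Without the parent DMSO list, 58.7% of the members were shared by the other 5 lists. That share is not given here for other regions, and leaving out a list cannot lower it. Regions in every list but parent DMSO were 11.4% of members, 8.35% of the rest of chromosome 19 and 6.28% of all regions.

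Shared members were wide and members of 1 list were narrow. Median width was 714 bp (402 to 2010 bp) for members in all 6 lists and 191 bp (133 to 554 bp) for members in 1 list. The other regions of chromosome 19 had medians of 754.5 bp in all 6 lists and 193 bp in 1 list. The width of a union region runs from the first start to the last end of its peaks, so more lists can only widen it. Within single lists, medians for the members in all 6 lists ran from 387 bp (parent DMSO) to 621 bp (parent 4 h). The widest member of all was a 2010 bp region of window D, chr19:54693186-54695195. It was covered over 1632, 1964 and 1930 bp in knockout lists (DMSO, 2 h, 4 h) and over 1855, 1975 and 2008 bp in parent lists. Its summit was low for its width, with fold enrichments over local background, as given by the authors' peak caller, of 5.20, 4.67 and 5.42 in knockout and 5.42, 5.68 and 5.37 in parent lists. The widest regions of windows A and B, chr19:20011222-20012232 and chr19:37340755-37342010, were called in all 6 lists, and that of window C, chr19:44439089-44439737, in every list but parent DMSO.

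In knockout cells the number of member peaks varied little between treatments, and in parent cells the DMSO list held fewer than both camptothecin lists. Member peaks numbered 200, 220 and 199 in knockout lists (DMSO, 2 h, 4 h) and 154, 252 and 257 in parent lists. In bulk cells, a site open in fewer cells and a site less open in each cell cannot be told apart. These peaks covered 86.0, 95.4 and 79.4 kb in knockout lists and 59.6, 130 and 141 kb in parent lists. As a share of the whole list, member peaks stayed within a narrow range, at 1.04, 1.05 and 1.04% in knockout and 1.08, 1.06 and 1.19% in parent lists. The rest of chromosome 19 took 3.83, 3.87 and 3.61% of the knockout lists and 3.82, 4.32 and 4.95% of the parent lists. The share of the list was thus above its parent DMSO value at both times outside the windows, and at 4 h only inside them.

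**Figure D2:**
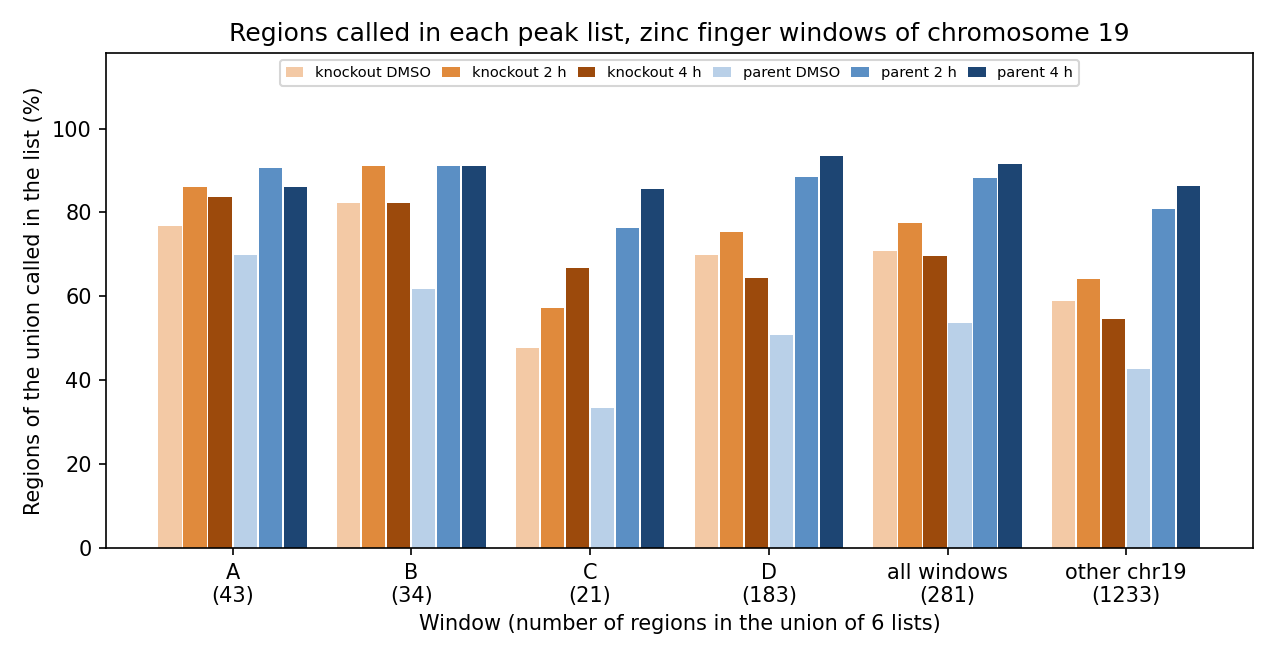
Share of union regions (y axis, %) called in each of the 6 peak lists, by window and for the rest of chromosome 19 (x axis, number of regions in brackets); each bar is 1 library, knockout in orange and parent in blue, from DMSO (light) to 4 h of camptothecin (dark). The parent DMSO bar is the lowest of the 6 in every window, at 53.7% of all members, and window C has the lowest share in every list but knockout 4 h.

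Camptothecin in SLFN11-positive cells was assessed by comparing the parent lists. At 2 h, 99 of 252 member peaks met no peak of the DMSO list (39.3%, 33.5 to 45.4%), and 1 of 154 DMSO peaks was missing at 2 h (0.649%, 0.115 to 3.59%). Over all peaks of the series these shares were 45.4% added and 7.45% missing. On the rest of chromosome 19 they were 48.7% added (45.7 to 51.8%) and 1.84% missing (1.00 to 3.36%). At 4 h, 110 of 257 member peaks were added (42.8%, 36.9 to 48.9%) and 4 of 154 DMSO peaks were missing (2.60%, 1.01 to 6.49%). The corresponding shares over the series were 42.8% and 11.2%, and on the rest of chromosome 19 they were 51.6% (48.6 to 54.6%) and 2.03% (1.13 to 3.59%). Against the series, the share of added members depended on list length. In lists of equal length, 27.7% of members were added at 2 h and 33.0% at 4 h, against 21.7% and 24.4% over the series. Missing members were then 6.49% at 2 h and 4.55% at 4 h, against 20.0% and 22.5%. In the full lists, none of the 94 DMSO peaks of window D was missing in either camptothecin list, which allows a share of up to 3.19% when 3 counts are taken as the limit of a count of 0.

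In parent cells, the log2 ratio of member peak numbers at 2 h over DMSO was 0.71 (interval 0.42 to 1.00), and that at 4 h was 0.74 (interval 0.45 to 1.03). It was 0.91 and 0.98 on the rest of chromosome 19, and 0.73 and 0.59 on the other chromosomes. By window the ratio at 4 h was 0.26 (-0.43 to 0.94) in A, 0.49 (-0.28 to 1.27) in B, 1.36 (0.14 to 2.59) in C and 0.86 (0.50 to 1.23) in D. In window C, 11 of 18 peaks at 4 h were added, against 10 of 37 in window A. With lists cut to the 14205 most significant peaks each, parent lists held 195 member peaks at 2 h and 215 at 4 h, against 154 at DMSO. The log2 ratios were then 0.34 (0.04 to 0.64) and 0.48 (0.18 to 0.78) for members, 0.34 and 0.52 for the rest of chromosome 19, and -0.02 and -0.03 for the other chromosomes. So the parent camptothecin lists of equal length still held more peaks in the windows than the DMSO list, and the rest of chromosome 19 did so by a like ratio. Placed by recorded sample, the log2 ratio of members became 0.03 at 2 h and -0.71 at 4 h, so the direction at 4 h turns.

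In SLFN11-knockout cells the same comparison gave smaller differences, with peaks added and peaks missing. At 2 h, 38 of 220 member peaks were added (17.3%, 12.9 to 22.8%) and 19 of 200 DMSO peaks were missing (9.50%, 6.17 to 14.4%), against 23.1% and 16.5% over the series. At 4 h, 23 of 199 were added (11.6%, 7.83 to 16.7%) and 25 of 200 were missing (12.5%, 8.61 to 17.8%), against 20.6% and 21.4%. The log2 ratio of member peak numbers at 2 h over DMSO was 0.14 (interval -0.14 to 0.41). That at 4 h was -0.01 (interval -0.29 to 0.28). Both intervals include 0, but they ignore that many peaks are shared, so they do not show equal numbers. On the rest of chromosome 19 the ratios were 0.13 and -0.09. Placed by recorded sample, they were -0.14 at both times for members, so the direction at 2 h turns. Whether the genotypes differ in their response was not tested, since each response rests on a pair of libraries.

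**Figure D3:**
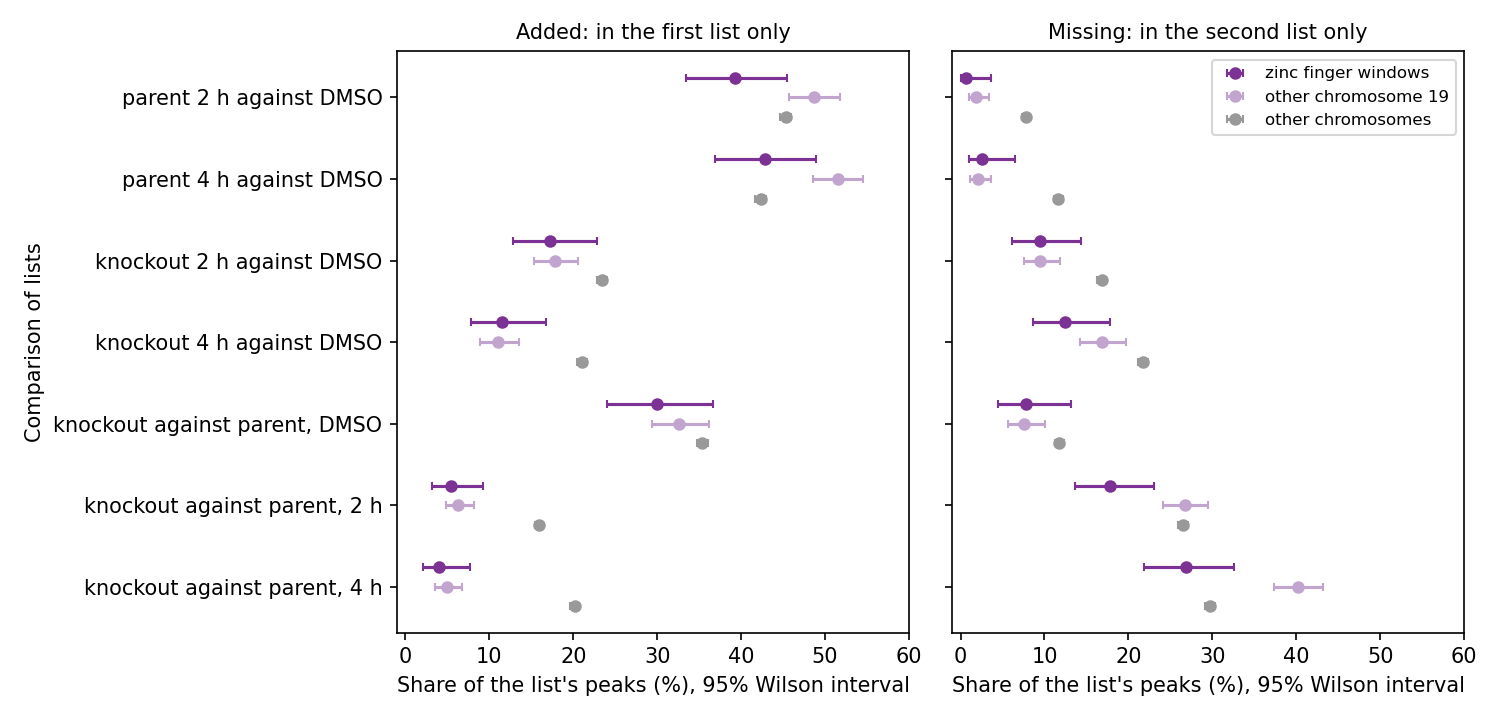
Share of peaks (x axis, %, with 95% Wilson intervals) that met no peak of the other list, for 7 comparisons of 2 lists (y axis); the first-named list is the one with added peaks (left panel), and the second the one with missing peaks (right panel). Members stand at 39.3% added and 0.649% missing in parent cells at 2 h. In these full lists the missing share of members lies below that of other chromosomes in all 7 comparisons. In lists of equal length it does not for knockout against parent, at 17.4% against 17.3% at 2 h and 29.8% against 22.4% at 4 h.

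Knockout and parent lists were compared at each treatment. At DMSO, 60 of 200 knockout member peaks met no parent peak (30.0%, 24.1 to 36.7%) and 12 of 154 parent peaks were missing (7.79%, 4.51 to 13.1%), against 35.2% and 11.6% over the series. At 2 h, 12 of 220 knockout peaks were added (5.45%, 3.15 to 9.29%) and 45 of 252 parent peaks were missing (17.9%, 13.6 to 23.1%), against 15.4% and 26.4%. At 4 h, 8 of 199 were added (4.02%, 2.05 to 7.73%) and 69 of 257 were missing (26.8%, 21.8 to 32.6%), against 19.4% and 30.2%. The log2 ratio of member peak numbers, knockout over parent, was 0.38 (0.07 to 0.68) at DMSO, -0.20 (-0.46 to 0.06) at 2 h and -0.37 (-0.64 to -0.10) at 4 h. Over the series it was 0.44, -0.18 and -0.17, and on the rest of chromosome 19 it was 0.44, -0.34 and -0.63. On the rest of chromosome 19 the knockout lists lacked larger shares of parent peaks at 2 h (26.7%, 24.1 to 29.5%) and at 4 h (40.2%, 37.3 to 43.2%) than in the windows. In lists of equal length the ratio for members was 0.14 at DMSO (-0.17 to 0.46), -0.15 at 2 h (-0.44 to 0.15) and -0.43 at 4 h (-0.72 to -0.13). At equal length, 20.6% of knockout members were added at DMSO, against 21.1% over the series. Without window D, the ratio in full lists was 0.26 (-0.23 to 0.75) at DMSO and -0.12 (-0.56 to 0.32) at 4 h. Both intervals then include 0, but they too ignore that many peaks are shared. By recorded sample the ratios were -0.20 at DMSO, -0.37 at 2 h and 0.38 at 4 h.

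Overlap of the genotypes at 4 h was also counted by window, on small numbers in A, B and C. Knockout cells lacked 5 of 37 parent peaks in window A (13.5%, 5.91 to 28.0%), 4 of 31 in window B, 6 of 18 in window C (33.3%, 16.3 to 56.3%) and 54 of 171 in window D (31.6%, 25.1 to 38.9%). The missing share over the series was 30.2%, and the interval of window A overlaps those of windows C and D. In the same order, the knockout list added 4 of its 36 peaks in window A, 1 of 29 in B, 2 of 14 in C and 1 of 120 in D. The added share over the series was 19.4%.

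No member was called in all 3 lists of a genotype and in none of the other. This held for knockout-only and for parent-only regions, at 0 of 281 each, which allows a share of up to 1.07% by the same limit of 3 counts. Over the series, 0.715% of regions were knockout-only and 0.309% parent-only. Without the parent DMSO list, 18 members were in both other parent lists and no knockout list, and 1 was in all 3 knockout lists and neither of these parent lists. Both parent camptothecin lists alone held these 18 members (6.41%), against 4.53% of all regions and 9.08% of the rest of chromosome 19. Genotypes taken over their 3 lists each do not depend on the placement. The share of chromosome 19 peaks that lay in the windows was 21.3, 21.4 and 22.4% in the knockout lists and 22.1, 19.8 and 19.4% in the parent lists. The means were 21.7% ± 0.583 for knockout and 20.4% ± 1.47 for parent (SD, n = 3 libraries of different treatment each). The difference of 1.27 points had p = 0.3 in a two-sided exact permutation test, in which 0.1 is the smallest p possible. Paired by treatment, knockout minus parent was -0.77, 1.60 and 2.99 points, and an exact sign-flip permutation test gave p = 0.5, with 0.25 the smallest p possible.

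Signal was compared through ranks, since fold enrichments of different lists are not on a common scale. The 11070 regions called in all 6 lists were ranked by fold enrichment within each list, so that every list ranks the same regions. Among the 133 members in this set, the median percentile was 46.7, 54.8 and 49.8 across the knockout series (DMSO, 2 h, 4 h), and 47.4, 57.5 and 63.8 across the parent series. For the 474 other regions of chromosome 19 it was 41.9, 45.3 and 38.0 in knockout and 42.9, 43.8 and 54.8 in parent lists. Members thus ranked higher than the rest of the chromosome in every list, by the median.

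In parent cells, more members ranked higher under camptothecin than ranked lower. At 2 h, 88 of the 133 members ranked higher than at DMSO (66.2%), with a median shift of 7.91 percentile points. A shift of 10 points or more upwards was seen for 60 members (45.1%, against 32.6% of all regions) and downwards for 28 (21.1%, against 34.2%). At 4 h, 92 members ranked higher (69.2%, median shift 12.0 points), with 68 members up by 10 points or more (51.1%, against 34.3%) and 28 down (21.1%, against 34.7%). In lists of equal length, 65.3% of the members called in all lists ranked higher at both times. On the rest of chromosome 19, in the full lists, 54.0% of regions ranked higher at 2 h and 65.0% at 4 h. In knockout cells the median shift of members was 2.78 points at 2 h and 0.47 points at 4 h, with 56.4% and 51.1% ranked higher. There, 54 members moved up by 10 points or more at 2 h (40.6%, against 29.5%) and 36 moved down as far (27.1%, against 30.3%). At 4 h, 44 moved up (33.1%, against 30.6%) and 49 down (36.8%, against 30.0%). Knockout members ranked lower than parent members at 4 h, where 71 of 133 were 10 points or more lower (53.4%, against 33.3%) and 24 as much higher (18.0%, against 33.8%). The rest of chromosome 19 did likewise, with 48.9% of its regions 10 points or more lower and 22.4% as much higher. Placed by recorded sample, 33.8% of members ranked higher at 4 h than at DMSO in parent cells and 37.6% at 2 h and 43.6% at 4 h than at DMSO in knockout cells. Under that placement 52.6% ranked higher in knockout than in parent cells at 4 h. Comparisons with the same DMSO list share that library.

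Among windows A, B and D, the median shift was largest in window A, the cluster next to the centromere. It was 12.8 points at 2 h and 19.2 points at 4 h in parent cells, and 8.23 and 18.7 points in knockout cells. Its 26 regions shared by all lists had median percentiles of 46.7, 73.0 and 70.0 across the knockout series, and of 55.8, 71.2 and 84.6 across the parent series. In the parent 4 h list 17 of the 26 lay above the 75th percentile of all common regions, against 6 in the parent DMSO list. In knockout cells 13 lay above it at 2 h and 11 at 4 h, against 7 at DMSO. So both camptothecin lists of both genotypes ranked window A above their DMSO list. Placed by recorded sample, the lists with medians of 46.7 and 55.8 would be those of 4 h, those with 73.0 and 71.2 would be DMSO, and those with 70.0 and 84.6 would be 2 h. The order against DMSO then turns at 4 h in both genotypes and at 2 h in knockout cells, and holds at 2 h in parent cells. Windows B and D did not share this pattern in knockout cells, with medians of 42.5, 44.8 and 36.4 in B and of 46.7, 54.0 and 45.6 in D. In parent cells the medians were 42.1, 52.299 and 46.5 in B and 42.4, 54.3 and 58.2 in D. Window C had only 4 such regions.

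**Figure D4:**
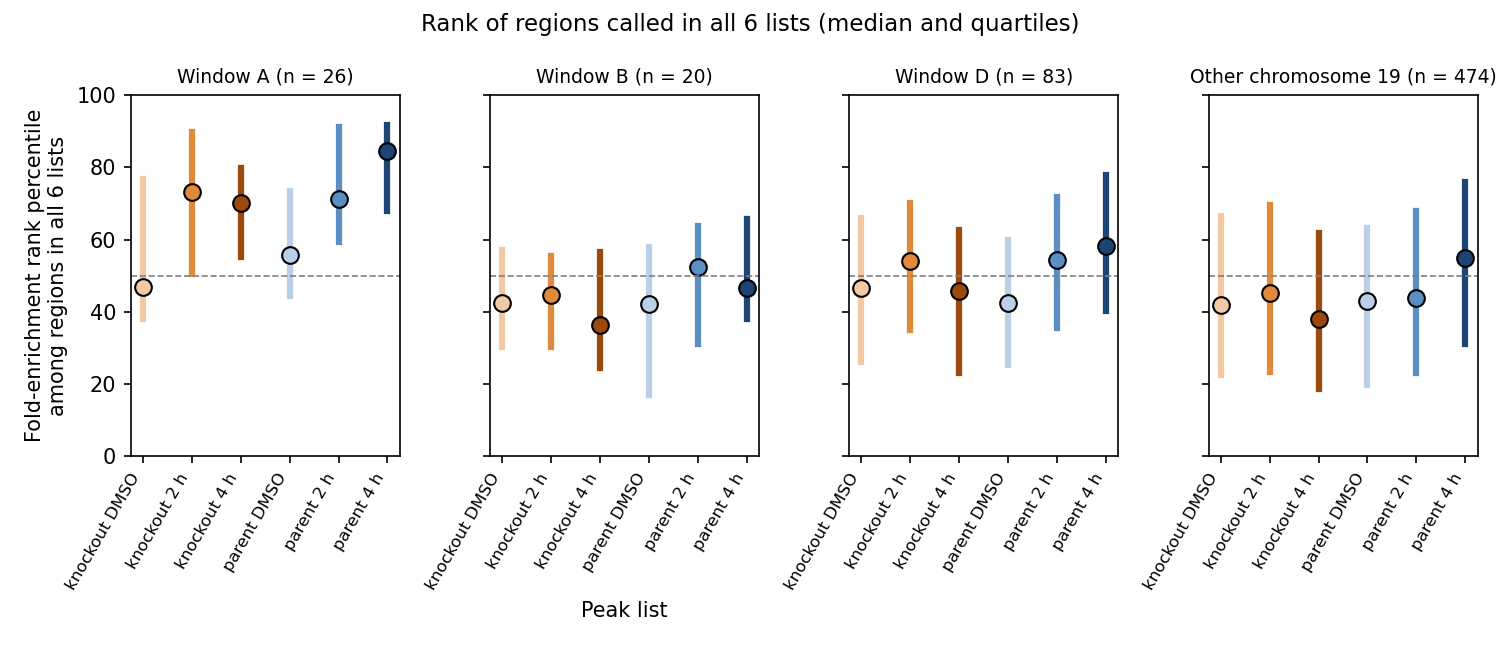
Percentile of fold enrichment among the 11070 regions called in all 6 lists (y axis) for window A, window B, window D and the rest of chromosome 19, by peak list (x axis); points are medians over regions, bars run from the lower to the upper quartile and the dashed line marks the middle rank. Window A has its highest median, 84.6, in the parent 4 h list and lies at 46.7 in the knockout DMSO list.

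Among members called in all lists, those with the highest lowest fold enrichment of their window show these ranks for single regions. In window A this was chr19:22018569-22019507, at the 59.9th, 62.0th and 80.3rd percentile in the knockout lists and the 83.7th, 92.4th and 85.0th in the parent lists. In window B it was chr19:37861610-37862340, at 44.8, 87.8 and 82.3 in knockout and 90.2, 95.3 and 97.1 in parent lists. This region was thus high in 5 lists and below the middle in knockout DMSO alone. In window C, chr19:44915245-44915788 stood at 99.3, 89.3 and 97.4 in knockout and 97.9, 81.0 and 93.6 in parent lists. Its width ran only from 488 to 541 bp. In window D, chr19:58789875-58790586 stood at 78.6, 85.2 and 90.7 in knockout and 83.1, 90.1 and 89.7 in parent lists.

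Members that separated lists were of several kinds. The member with the highest fold among those added in parent cells at both times was chr19:56028313-56028742, at 12.5 at 2 h and 14.5 at 4 h and not called at DMSO. It was called in all knockout lists at 5.82, 6.37 and 5.38, so it is not a site of parent cells alone. The reverse was seen at chr19:20586475-20586896 in window A, called at 5.40 in the parent DMSO list and in no parent camptothecin list. In the knockout lists it stood at 5.29, 4.64 and 5.08. It was the one member missing at 2 h, and shared the highest fold of the 4 missing at 4 h with chr19:23982173-23982424.

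Both parent camptothecin lists and neither DMSO list held 40 members (14.2%), against 9.40% of all regions of the series and 15.7% of the rest of chromosome 19. By recorded sample, these 40 members would be called in the parent DMSO and 2 h lists and in neither 4 h list. By code, ordered by the lower of their folds in both parent camptothecin lists, the highest was chr19:38269895-38270613 in window B. It stood at 8.49 at 2 h and 9.01 at 4 h in parent lists. The knockout camptothecin lists held it too, at 4.53 and 5.93. Next came chr19:58070940-58071348 (8.34 and 8.59 in parent cells) and chr19:37825359-37825788 (7.79 and 8.53), each of them called in at least 1 knockout camptothecin list. The following pair, chr19:58361086-58361390 (7.63 and 7.51) and chr19:56879399-56879908 (8.30 and 7.06), was called in no knockout list. By contrast, 32 members were in every list but parent DMSO (11.4%, 8.18 to 15.6%), and they included the widest region of window C. The share was 6.28% over all regions and 8.35% on the rest of chromosome 19, within the interval of the members. This pattern rests on the shortest list.

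Within knockout cells, the highest member added at 2 h was chr19:53324628-53325064 (7.69), which the 4 h list also held at 5.36. The highest added at 4 h was chr19:23982173-23982424 (6.35), also held at 2 h (7.18). Missing at 2 h was chr19:55062651-55063036, at 6.61 in knockout DMSO, and missing at 4 h was chr19:58458807-58459335, at 6.76 in knockout DMSO. Between genotypes, the highest knockout member that the parent lacked at DMSO and at 2 h was a narrow region of window C, chr19:44961318-44961528. Its fold enrichments were 11.6, 7.97 and 10.9 in the knockout lists, and the parent 4 h list held it at 7.96. At 4 h the highest knockout member that the parent lacked was again chr19:23982173-23982424, which the parent lists held at DMSO (5.40) and at 2 h (8.30).

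The highest parent members that the knockout lacked were chr19:58694230-58695016 at DMSO (5.93), chr19:55517381-55517719 at 2 h (11.5) and chr19:52511247-52511858 at 4 h (14.7). The first was called at 2 h in knockout cells (4.63), the second at DMSO (4.41) and the third at 2 h (3.80). None of these members was absent from all knockout lists.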

How the data were processed

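ATAC-seq peak lists of 6 libraries were used. Per the submitters' processing notes, MACS2 2.1.2, Picard 2.9.2, SAMtools 1.8, BWA 0.7.17, Trimmomatic 0.39 and Trim Galore 0.6.2 were used, with hg19 as build and no roles stated. The sources used here do not give read shift, fragment extension, treatment of duplicates or background model, and each can move peak edges and numbers. Each list belongs to 1 library, per the labels. Each deposited entry has a score (10 times the -log10 q, truncated, in nearly all entries), a -log10 p, a -log10 q and a fold enrichment (a ratio over local background), all from the authors' peak caller. Every list ends at a q of 0.01. Read depth is not given in these files.

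Within a list, entries that overlap were joined to 1 peak that keeps the highest fold, on chromosomes 1 to 22 and X. Union regions, overlaps (1 bp or more) and ranks were computed in Python 3.11.15 with pandas 2.3.3, and intervals with SciPy 1.17.1. Scripts were tested on simulated lists with known overlaps. The members, windows and comparisons were chosen with earlier results of these data known. Named regions are, per window, the member in all 6 lists with the highest lowest fold and the widest member; per comparison, the highest added and the highest missing member; and the 5 highest members in both parent camptothecin lists and neither DMSO list. The ranks among common regions were chosen after the lists were seen. Alternatives were a stricter q, lists of equal length, windows left out, wider peaks, a larger overlap, entries as deposited, pairing by treatment and placement by recorded sample. No hg19 genome or annotation was used here.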

Additional observations from a re-analysis of the deposited data

Results flagged for a closer look

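The genotypes stood on opposite sides of 0 in the ratio of member peak numbers at 4 h. The log2 ratio of 4 h over DMSO was -0.00723 in knockout cells and 0.74 in parent cells, by the code of each list. The knockout lists held 199 member peaks at 4 h and 200 at DMSO. The signs were also opposite outside the windows, at -0.0949 and 0.979 on the rest of chromosome 19 and -0.00583 and 0.587 on other chromosomes. The pattern is thus not particular to the windows. The difference was not tested, because each ratio rests on a pair of libraries. The knockout interval (-0.29 to 0.28) includes 0, but it ignores that many peaks are shared by both lists.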

How the results depend on the processing

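The labels give no replicate numbers. Pairing by treatment, chosen after seeing the data, left the difference between genotypes in the windows' share of chromosome 19 peaks at 1.27 points, with an exact permutation p of 0.5. The list coded as parent DMSO is the shortest, and depth is unknown, so differences against it can move with list length.

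Entries with a -log10 q of at least 5 moved 10 of 38 values. In parent cells, added members became 53.3% at 2 h and 55.6% at 4 h, with log2 ratios of 1.09 and 1.13. Missing members became 19.2% for knockout 4 h against DMSO. For knockout against parent, added members became 40.1% at DMSO and 1.32% at 4 h, with 35.9% missing at 4 h. The share in all 6 lists became 37.6%, and 2 members were parent-only. At this cut no shares over other regions are given, so these values cannot be set against those of the series.

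Lists of equal length moved 8 of 38 values. In parent cells at 2 h, added members became 27.7%, missing members 6.49% and the log2 ratio 0.34, and 33.0% were added at 4 h. Added members in knockout against parent at DMSO became 20.6%, and 2 members were parent-only. The windows' share of chromosome 19 peaks became 22.1% in parent 2 h and 21.7% in parent 4 h. Peaks wider than 200 bp moved 3 of 38 values, to 0.806% missing in parent cells at 4 h, 1.82% added in knockout against parent at 4 h, and 2 parent-only members.

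Without window A, missing members in parent cells became 0 at 2 h and 0.813% at 4 h. The windows' share of chromosome 19 peaks became 17.8, 17.8 and 18.3% in knockout lists (DMSO, 2 h, 4 h) and 17.6, 16.7 and 16.6% in parent lists. Without window D it became 7.68, 7.77 and 8.88% in knockout and 8.61, 6.83 and 6.48% in parent lists. Also without window D, added members in parent cells at 2 h became 33.3% and missing members at 4 h 6.67%. For knockout against parent at 4 h, 8.86% were added and 17.4% missing, with a log2 ratio of -0.12 (-0.56 to 0.32). The share ranked higher than at DMSO became 74.0% in parent 2 h and 62.0% in knockout 4 h.

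Placement by recorded sample, with 28 values compared, turned 5 and moved 16 others outside their interval. The 28 include added and missing shares, which have no value of no difference and cannot turn. Of log2 ratios and shares ranked higher whose interval lay on 1 side of no difference, only those of parent 2 h kept their direction. Of values whose interval included no difference, the knockout 2 h log2 ratio and the shares ranked higher in knockout 2 h, in knockout 4 h (43.6%) and in knockout against parent at DMSO (46.6%) also crossed it. In parent cells at 2 h, added members became 7.78%, missing members 4.37% and the log2 ratio 0.028. At 4 h they became 0.649%, 39.3% and -0.71. In knockout cells at 2 h they became 8.54%, 17.7% and -0.14. For knockout against parent they became 5.45%, 17.9% and -0.20 at DMSO, and 30.0%, 7.79% and 0.38 at 4 h, with 26.8% missing at 2 h. The share ranked higher became 55.6% (parent 2 h), 33.8% (parent 4 h), 37.6% (knockout 2 h), and, for knockout against parent, 36.1% at 2 h and 52.6% at 4 h. Here the lists themselves were the same and only their labels differed.

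Without the parent list of fewest peaks, 58.7% of members were in the other 5 lists (chosen after seeing the data), 18 members were parent-only and 1 was knockout-only. The share of 58.7% has no value for other regions beside it. An overlap of 50% of the shorter peak (14 values) and entries counted as deposited (7 values, chosen after seeing the data) moved no value beyond its interval. Beyond the placement, the cause of the moved values was not tested.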

Other observations

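Summits were less often multiple in the windows than on the rest of chromosome 19 in 5 of 6 lists, and more often in parent 4 h. Peaks with more than 1 entry made up 23.5, 21.8 and 24.6% of members in knockout lists (DMSO, 2 h, 4 h) and 18.8, 29.8 and 30.7% in parent lists. On the rest of chromosome 19 the shares were 25.2, 30.2 and 29.1% in knockout and 22.8, 31.7 and 28.9% in parent lists.

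Added and missing members were narrower than shared ones in nearly every comparison. The median width of members added in knockout cells at 2 h was 230.5 bp, against 443.5 bp for shared ones. In parent cells at 2 h it was 342 bp for added and 567 bp for shared members, and at 4 h 372 and 608 bp. The exception was the single DMSO member missing in parent cells at 2 h, at 348 bp against 347 bp.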
